A study of Homo sapiens with 6 samples.

Results

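The autophagy machinery genes are 40 genes taken by symbol from the deposited table of 20532 genes, and each symbol matched 1 row. They were grouped by role into the ULK1 initiation complex (5 genes), Beclin 1 and its partners in the lipid kinase complex (4), binders of phosphatidylinositol 3-phosphate with the lipid movers ATG2 and ATG9 (6), conjugation enzymes (10), ATG8 proteins (5), cargo receptors (5), the TFEB family (3) and a pair of late-acting genes, EPG5 and TECPR1. All 40 passed the filter on low counts, with at least 20 reads in every library. RNA came from MDA-MB-231 M3 cells, which derive from MDA-MB-231, a line of human triple-negative breast cancer, by selection for growth in bone. The 6 mRNA libraries form 2 groups of 3, control cells and cells in which an siRNA lowered PRMT1 (siPRMT1), the main enzyme that places asymmetric dimethyl marks on protein arginines. The sources used here do not state what, if anything, the control cells were transfected with, and all libraries come from 1 cell line. The labels call the libraries biological replicates without naming separate cultures, so the p-values measure the spread between these libraries, which may be technical.

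Autophagy encloses cytoplasm in a double membrane that fuses with the lysosome. The ULK1 kinase complex starts the process, the Beclin 1 lipid kinase complex marks the growing membrane with phosphatidylinositol 3-phosphate, and ATG2 with ATG9 supplies lipid. Conjugation enzymes then attach ATG8 proteins (the LC3 and GABARAP families) to the membrane, where cargo receptors bind them, and TFEB and its relatives switch on genes of autophagy and lysosomes by binding the E-box CACGTG.

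Total counts ran from 16968563 to 20545995 per library. PRMT1, the targeted gene, had 3160, 2991 and 3072 counts in control and 193, 218 and 181 in siPRMT1 libraries, a log2 fold change (siPRMT1 minus control) of -3.62 (SE 0.0451; edgeR quasi-likelihood adjusted p = 9.06e-297). The cell line's known markers VIM, CD44, KRT8 and KRT18 had at least 5069 counts each in every library, while the hormone receptor genes ESR1 and PGR had at most 3. ERBB2, the other breast receptor gene looked up, was not low. It had 1312, 1209 and 1350 counts in control and 1129, 1378 and 1124 in siPRMT1 libraries, a log2 fold change of 0.25. Among the leukocyte markers PTPRC and CD3E had at most 4 counts, and the list summed to between 13.9 and 15.7 CPM (counts scaled to a common library size) in control and between 21.0 and 22.9 in siPRMT1 libraries, mainly from CD14 and CSF1R. The 5 endothelial markers summed to between 28.1 and 29.4 against between 18.2 and 18.8, mainly from PECAM1 and KDR, and the 6 bone cell markers to between 4.17 and 5.86 against between 4.39 and 5.60, with BGLAP higher (1.83) and CALCR lower (-1.95) on the log2 scale. The mitochondrial genome gave 5.001% to 5.09% of control counts and 8.64% to 8.74% of siPRMT1 counts. The part of these values in the results below was not tested, and in bulk RNA fewer cells of a type and less RNA per cell cannot be told apart.

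Of the 40 autophagy genes 37 changed (edgeR's quasi-likelihood test, Benjamini-Hochberg adjusted p below 0.05 over the 13710 genes tested; at most 0.00289 for the 37), which is 92.5% against 89.3% of all tested genes. The groups did not overlap for those 37, again 92.5%, against 89.1% of all tested genes. There were 21 autophagy genes that rose (52.5%, against 44.3% of all tested genes) and 16 that fell (40%, against 45.0%). At least 2-fold changes were found for 7 that rose (17.5%, against 15.3%) and 6 that fell (15%, against 21.0%). All of these shares lie near those of all genes. The median log2 fold change was 0.13, beside -0.0082 over all tested genes, and the median size of change was 0.53 beside 0.76. All levels are relative, set against the rest of the library. When scaled only by library size the median of all genes moved by -0.317, 12 autophagy genes rose and 22 fell, and over all tested genes 4588 rose and 7593 fell, instead of 6078 and 6165.

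Added up, the autophagy genes took a similar share of all counts, 0.498% to 0.501% in control and 0.5002% to 0.502% in siPRMT1 libraries. SQSTM1 alone took 0.209% to 0.210% in control and 0.204% to 0.210% in siPRMT1 libraries. The ranges of this summed share overlap between the groups. Levels between genes are compared per length, as TMM-scaled CPM divided by the length of the deposited gene model in kilobases. On this scale SQSTM1 stood highest in the control cells (249), followed by GABARAP (118), ATG10 (45.4), OPTN (42.9) and MAP1LC3B (26.6), and TFEB (0.540) and ULK2 (0.652) stood lowest. In the siPRMT1 cells SQSTM1 (307), GABARAP (275) and ATG10 (125) again led, and ULK2 (0.166), ATG2B (0.560) and EPG5 (0.718) were lowest. The values of ATG10, GABARAP and SQSTM1, and so their order, are uncertain, because reads shared with genes that overlap them may be counted in both, as given with each gene.

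**Figure D1:**
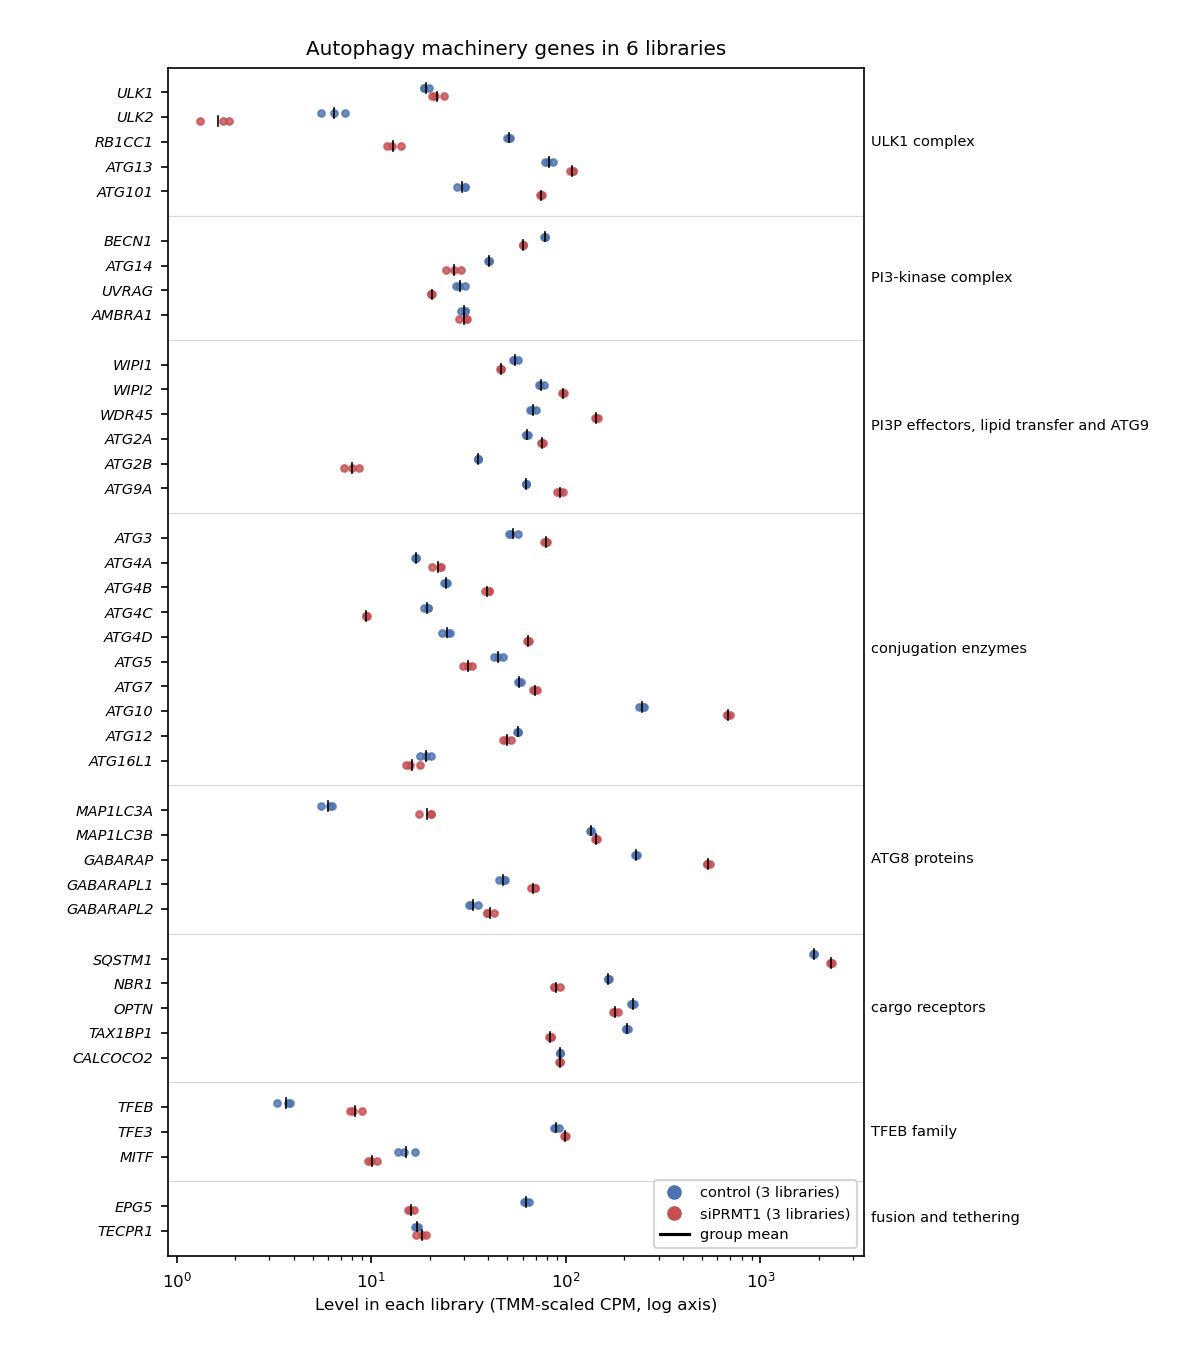
Level of each of the 40 autophagy genes in each library, in TMM-scaled CPM on a log axis, grouped by role; points are libraries (3 control, 3 siPRMT1) and black ticks are group means. The points of a group lie close together, and the groups overlap only for AMBRA1, CALCOCO2 and TECPR1.

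Promoter windows were available in the RefSeq table (GRCh38.p14) for 35 of the 40 genes. Each spans 250 bases before to 50 bases after an annotated start. The E-box of the TFEB family, CACGTG (which reads the same on both strands), was found in the windows of 2 of these 35 genes, ATG3 and ATG14, which is 5.71%, and in 8.77% of all symbols in the table (7.26% of all windows). These are shown because TFEB and its relatives are themselves autophagy genes here, with the E-box in capitals. The ATG3 window (chr3:112561913-112562212, minus strand) holds the motif at positions 233 and 256, and the ATG14 window (chr14:55411781-55412080, minus strand) at position 230, counted from 1 at the 5′ end of the window.
ATG3: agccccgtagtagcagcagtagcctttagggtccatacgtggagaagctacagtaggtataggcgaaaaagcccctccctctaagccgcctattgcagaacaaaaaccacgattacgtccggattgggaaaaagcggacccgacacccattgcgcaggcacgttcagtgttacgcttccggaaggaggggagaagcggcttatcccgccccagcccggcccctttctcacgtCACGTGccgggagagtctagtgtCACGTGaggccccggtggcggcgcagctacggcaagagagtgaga
ATG14: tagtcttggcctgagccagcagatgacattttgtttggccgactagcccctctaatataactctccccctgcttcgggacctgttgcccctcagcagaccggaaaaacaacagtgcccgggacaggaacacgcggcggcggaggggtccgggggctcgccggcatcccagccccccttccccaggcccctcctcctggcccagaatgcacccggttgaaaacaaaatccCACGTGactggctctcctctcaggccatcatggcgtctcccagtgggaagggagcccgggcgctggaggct
The genes with these windows moved in opposite directions, ATG3 by 0.56 and ATG14 by -0.58 on the log2 scale. Promoters of ATG2A (chr11:64917160-64917459, minus strand) and ATG2B (chr14:96363292-96363591, minus strand), related genes that moved apart, are shown with each CG dinucleotide in capitals.
ATG2A: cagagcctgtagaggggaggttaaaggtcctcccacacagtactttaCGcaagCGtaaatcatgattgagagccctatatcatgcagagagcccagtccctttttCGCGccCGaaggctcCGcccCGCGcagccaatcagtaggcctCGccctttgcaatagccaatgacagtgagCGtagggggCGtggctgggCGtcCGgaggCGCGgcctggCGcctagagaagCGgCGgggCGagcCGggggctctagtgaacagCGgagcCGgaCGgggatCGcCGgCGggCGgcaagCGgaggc
ATG2B: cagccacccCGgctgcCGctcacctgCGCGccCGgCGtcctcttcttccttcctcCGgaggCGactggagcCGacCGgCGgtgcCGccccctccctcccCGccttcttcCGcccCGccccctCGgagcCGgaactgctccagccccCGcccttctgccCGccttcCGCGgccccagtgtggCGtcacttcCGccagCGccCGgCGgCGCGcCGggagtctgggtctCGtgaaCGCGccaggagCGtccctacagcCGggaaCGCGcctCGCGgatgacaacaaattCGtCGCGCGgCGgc
The ATG2A window has 28 CG dinucleotides and a GC content of 64.7%, and the ATG2B window has 43 and 75.0%. In the transcripts the order is the reverse, with a GC content of 63.9% for ATG2A and 42.9% for ATG2B. A motif match is a description of these letters and not a measured binding site.

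In the ULK1 complex, 3 of 5 genes rose and 2 fell. The counts of this and each later role stand beside the 44.3% of all tested genes that rose and the 45.0% that fell. The roles hold few genes and were not tested as sets. The scaffold gene RB1CC1 (FIP200) and the kinase gene ULK2 were 3.89-fold and 3.91-fold below their control levels, whereas the genes of the subunits ATG101 and ATG13 rose. ULK2 (ENSG00000083290; hg38, chromosome 17, 19770829 to 19867936, minus strand) had 7.30, 5.55 and 6.45 CPM in control libraries against 1.74, 1.85 and 1.31 CPM in siPRMT1 libraries, where all 3 lie below every control library. Its log2 fold change was -1.97 (SE 0.154; edgeR quasi-likelihood adjusted p = 1.51e-32), and it has few reads, with 28, 34 and 20 counts in siPRMT1 libraries. ATG101 (ENSG00000123395; hg38, chromosome 12, 52069246 to 52077495, plus strand), a stabiliser of ATG13, had 27.5, 30.2 and 30.4 CPM in control libraries against 75.7, 74.2 and 73.4 CPM in siPRMT1 libraries, again without overlap. The log2 fold change was 1.34 (SE 0.0414; adjusted p = 1.36e-127, same test), and 19.2% of its exon bases lie opposite to exons of a long noncoding RNA, ENSG00000257663.

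RB1CC1, which links the kinase to the site of membrane formation, went from 50.9 ± 0.916 to 13.0 ± 1.08 CPM (SD, n = 3 each), a log2 fold change of -1.96. ATG13, the adaptor between kinase and scaffold, rose by 0.40 on the log2 scale, from 81.8 ± 4.10 to 108 ± 2.45 CPM. ULK1, the main kinase, rose by 0.19, from 19.1 ± 0.724 to 21.8 ± 1.58 CPM, but was lower when scaled only by library size (-0.13) and after the GC and length correction, which removed trends with both properties of the transcript (-0.16). Without siPRMT1 replicate 3 the rise of ULK1 was 0.13 and did not pass (edgeR quasi-likelihood adjusted p = 0.0629). After the correction ULK2 (-1.11) and RB1CC1 (-0.63) were still lower and ATG13 (0.50) and ATG101 (0.25) still higher.

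Of Beclin 1 and its partners, 3 of 4 genes fell and none rose. ATG14 (ENSG00000126775; hg38, chromosome 14, 55366391 to 55411830, minus strand), which directs the lipid kinase to autophagosome formation, had 40.03, 40.2 and 40.1 CPM in control libraries against 26.7, 28.9 and 24.2 CPM in siPRMT1 libraries. The groups did not overlap, and the log2 fold change was -0.58 (SE 0.0494; edgeR quasi-likelihood adjusted p = 1.78e-28). UVRAG, the alternative partner that acts with endosomes, fell by 0.48 on the log2 scale, from 28.6 ± 1.45 to 20.4 ± 0.1004 CPM (SD, n = 3 each). BECN1, the central subunit, fell by 0.37, from 78.1 ± 0.444 to 60.3 ± 0.271 CPM. AMBRA1, a regulator of Beclin 1 and ULK1, had 29.1, 30.3 and 30.5 CPM in control libraries against 31.2, 28.3 and 30.7 CPM in siPRMT1 libraries. These ranges overlap, and its log2 fold change of 0.00065 did not pass (SE 0.0509; adjusted p = 0.991, same test). After the GC and length correction BECN1 remained lower (-0.35), while ATG14 (0.11) and UVRAG (0.18) were higher. The exons of ATG14 overlap those of FBXO34 on the opposite strand over 20.8% of their bases, and those of BECN1 overlap CNTD1 over 12.4%. Reads of these pairs may not be told apart if strand was not used in counting. The log2 fold change was -0.61 for FBXO34 and 0.31 for CNTD1.

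Among the binders of phosphatidylinositol 3-phosphate and the lipid movers, 4 of 6 genes rose and 2 fell. ATG2B (ENSG00000066739; hg38, chromosome 14, 96279195 to 96363341, minus strand), a tube-shaped lipid transfer protein, had the largest fall of all 40 genes. It had 35.5, 35.2 and 35.4 CPM in control libraries against 8.003, 8.70 and 7.23 CPM in siPRMT1 libraries, far below every control library. The fall was 4.41-fold, a log2 fold change of -2.14 (SE 0.0682; edgeR quasi-likelihood adjusted p = 3.77e-122). Its relative ATG2A, which has the same activity, went from 63.0 ± 0.501 to 75.6 ± 0.964 CPM (SD, n = 3 each) and rose by 0.26. Scaled only by library size, ATG2A was at -0.054 and did not pass.

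WDR45 (ENSG00000196998; hg38, chromosome X, 49074433 to 49101144, minus strand), a WIPI-family propeller protein that is mutated in a neurodegenerative disease, had 65.2, 67.4 and 70.2 CPM in control libraries against 141, 143 and 146 CPM in siPRMT1 libraries. The siPRMT1 values all lie above the control values, with a log2 fold change of 1.08 (SE 0.0299; adjusted p = 8.78e-145, same test). WIPI2, which recruits ATG16L1 to the membrane, rose by 0.38, from 74.5 ± 2.37 to 96.9 ± 1.13 CPM, but was at 0.062 and did not pass when scaled only by library size. ATG9A, the transmembrane lipid scramblase, rose by 0.58, from 62.5 ± 0.253 to 93.5 ± 3.48 CPM. WIPI1, another binder of the lipid mark, fell by 0.24 on the log2 scale, from 54.8 ± 1.61 to 46.3 ± 0.228 CPM. Before the correction WIPI2, ATG9A and WIPI1 thus changed less than WDR45, but after it WIPI1 and WIPI2 changed more. After the correction the values were -0.93 for ATG2B, -0.47 for WIPI1, 0.44 for WIPI2, 0.20 for WDR45 and 0.20 for ATG9A. ATG2A, at 0.026, no longer passed. The table has a further entry on the same strand that covers 38.8% of the exon bases of ATG9A. Another covers 14.4% of those of WDR45, and 24.4% of the exon bases of WIPI1 lie opposite to exons of ARSG. The log2 fold changes were 1.03 for the entry at ATG9A, 1.11 for that at WDR45 and 0.20 for ARSG.

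Of the 10 conjugation enzyme genes 6 rose and 4 fell, and the 4 ATG4 proteases, which trim ATG8 proteins and later free them from the membrane, split. ATG4D (1.39), ATG4B (0.72) and ATG4A (0.37) rose on the log2 scale, and ATG4C fell. When scaled only by library size ATG4A was at 0.052 and did not pass. After the correction ATG4D was at 0.32, ATG4B at 0.16 and ATG4A at 0.68. ATG4C (ENSG00000125703; hg38, chromosome 1, 62784132 to 62865513, plus strand) had 19.6, 19.7 and 18.7 CPM in control libraries against 9.37, 9.46 and 9.46 CPM in siPRMT1 libraries, and the groups did not overlap. Its log2 fold change was -1.04 (SE 0.0753; edgeR quasi-likelihood adjusted p = 1.09e-36), and after the correction -0.033, which did not pass (adjusted p = 0.700). ATG4B, the most active of the proteases on LC3, went from 24.1 ± 0.496 to 39.6 ± 1.07 CPM (SD, n = 3 each) and ATG4A from 16.95 ± 0.140 to 22.0 ± 1.29 CPM. ATG4D went from 24.4 ± 1.05 to 63.9 ± 0.835 CPM, and 14.7% of its exon bases lie opposite to exons of KRI1, which rose by 1.21.

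The transferase genes were mixed as well. ATG7, the activating enzyme of both conjugation routes, rose by 0.27, from 57.8 ± 1.09 to 69.5 ± 1.61 CPM (SD, n = 3 each). Scaled only by library size, ATG7 was at -0.049 and did not pass. ATG3, which passes ATG8 proteins to the lipid, rose by 0.56, from 53.6 ± 3.08 to 78.7 ± 1.14 CPM. The genes of the complex that completes this step all fell, ATG5 by 0.52, ATG12 by 0.18 and ATG16L1 by 0.24 on the log2 scale. Their mean levels were 45.0 ± 2.56, 56.5 ± 0.378 and 19.1 ± 1.26 CPM in control cells and 31.4 ± 1.73, 49.7 ± 2.27 and 16.3 ± 1.35 CPM in siPRMT1 cells. After the correction ATG5 (0.27) and ATG12 (0.94) were higher and ATG16L1 (-0.13) did not pass, while ATG3 (0.24) and ATG7 (0.69) were still higher. Of the exon bases of ATG7, 18.1% lie opposite to exons of VGLL4, which had a log2 fold change of -0.40.

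ATG10 (ENSG00000152348; hg38, chromosome 5, 81972023 to 82276297, plus strand), the enzyme that joins ATG12 to ATG5, had 249.8, 252 and 239 CPM in control libraries against 673, 694 and 675 CPM in siPRMT1 libraries, a rise of 1.46 on the log2 scale (SE 0.0151; the adjusted p is too small for edgeR to print). This is the highest level of the conjugation enzymes by far, and its exons overlap 374 bases of the ribosomal protein gene RPS23 on the opposite strand, 6.87% of the exon bases of ATG10. RPS23 had 13795, 12421 and 12867 counts in control and 21974, 25133 and 20672 in siPRMT1 libraries, and rose by 1.14. The counts of ATG10 were between 39.5% and 40.6% of those of RPS23 in control and between 49.3% and 50.7% in siPRMT1 libraries. The strand setting of the counting is unknown here, so how many of the ATG10 reads belong to RPS23 cannot be told from the table, and the value of ATG10 is uncertain.

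All 5 ATG8 genes rose, beside 44.3% of all tested genes. When scaled only by library size MAP1LC3B was lower (-0.22) and GABARAPL2 (-0.034) did not pass. GABARAP (ENSG00000170296; hg38, chromosome 17, 7240008 to 7242358, minus strand) was the most abundant of the ATG8 genes, with 233, 227 and 231 CPM in control libraries against 529.7, 548 and 531 CPM in siPRMT1 libraries. The siPRMT1 libraries held more than double the control level, a log2 fold change of 1.22 (SE 0.0169; edgeR quasi-likelihood adjusted p = 2.15e-275). A second entry of the table on the same strand, ENSG00000262526, has 89.0% of its exon bases within exons of GABARAP, and its counts were between 98.3% and 101% of those of GABARAP in every library.

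MAP1LC3A (ENSG00000101460; hg38, chromosome 20, 34546854 to 34560345, plus strand), an LC3 form at low level here, had 6.12, 6.30 and 5.55 CPM in control libraries against 20.4, 17.5 and 20.2 CPM in siPRMT1 libraries. It had the largest rise of all 40 genes, 3.22-fold, with a log2 fold change of 1.69 (SE 0.0831; adjusted p = 9.61e-68, same test). MAP1LC3B (ENSG00000140941; hg38, chromosome 16, 87383953 to 87404779, plus strand), the LC3 form most used as a marker of autophagosomes, had 134, 135 and 133 CPM in control libraries against 142, 145 and 143 CPM in siPRMT1 libraries. The gap between its groups is narrow but they do not overlap, and the log2 fold change was 0.094 (SE 0.0259; adjusted p = 3.82e-04, same test). GABARAPL1, a close relative of GABARAP, rose by 0.53, from 47.3 ± 1.87 to 68.1 ± 1.88 CPM (SD, n = 3 each), and GABARAPL2 (GATE-16) by 0.28, from 33.3 ± 1.87 to 40.6 ± 2.10 CPM. After the GC and length correction GABARAP (0.80), MAP1LC3B (0.35), GABARAPL1 (0.30) and MAP1LC3A (0.29) were still higher and GABARAPL2 (0.084) did not pass. MAP1LC3B2, a near copy of MAP1LC3B, had between 4 and 11 counts per library.

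Of the 5 cargo receptor genes 1 rose, 3 fell and 1 did not pass. SQSTM1 (ENSG00000161011; hg38, chromosome 5, 179806398 to 179837218, plus strand), the gene of p62, which carries ubiquitin-tagged cargo, had 1873, 1877 and 1875 CPM in control libraries against 2342, 2280.3 and 2309 CPM in siPRMT1 libraries. Its level was higher in all 3 siPRMT1 libraries, a log2 fold change of 0.30 (SE 0.0148; edgeR quasi-likelihood adjusted p = 6.06e-68). Scaled only by library size, SQSTM1 was at -0.016 and did not pass, and after the correction it was lower (-0.16). Of its exon bases 21.0% lie opposite to exons of MRNIP, which had 17869, 15933 and 16804 counts in control and 22174, 24765 and 20270 in siPRMT1 libraries, with a log2 fold change of 0.75 (-0.16 after the correction).

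TAX1BP1 (ENSG00000106052; hg38, chromosome 7, 27739331 to 27844564, plus strand), a receptor for protein aggregates, had 209, 204 and 203 CPM in control libraries against 83.4, 82.4 and 83.9 CPM in siPRMT1 libraries. It fell 2.47-fold, with a log2 fold change of -1.30 (SE 0.0269; adjusted p = 8.51e-196, same test). NBR1, which clusters ubiquitin-tagged cargo together with p62, went from 165 ± 1.55 to 89.3 ± 3.85 CPM (SD, n = 3 each; -0.88). OPTN, a receptor in the clearance of mitochondria and bacteria, went from 220.2 ± 3.62 to 179 ± 5.21 CPM (-0.30). CALCOCO2 (NDP52), a receptor for bacteria and mitochondria, was at 93.1 ± 0.113 and 92.9 ± 0.852 CPM, and its log2 fold change of -0.0026 did not pass (adjusted p = 0.938, same test). When scaled only by library size CALCOCO2 was lower (-0.32) and passed. After the correction TAX1BP1 (-0.41) and NBR1 (-0.25) were still lower, and OPTN (0.17) and CALCOCO2 (0.56) were higher.

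In the TFEB family, TFEB and TFE3 rose and MITF fell, but TFE3 was lower when scaled only by library size (-0.16) and after the correction (-0.33). TFEB (ENSG00000112561; hg38, chromosome 6, 41683978 to 41736259, minus strand) had 3.74, 3.85 and 3.29 CPM in control libraries against 8.07, 8.97 and 7.75 CPM in siPRMT1 libraries. These are low levels, from 82, 77 and 70 counts and 130, 165 and 118 counts, and the groups did not overlap. The log2 fold change was 1.19 (SE 0.116; edgeR quasi-likelihood adjusted p = 1.50e-22), and 0.26 after the correction. MITF (ENSG00000187098; hg38, chromosome 3, 69739456 to 69965669, plus strand), best known in pigment cells, had 14.7, 16.8 and 13.7 CPM in control libraries against 9.62, 9.95 and 10.8 CPM in siPRMT1 libraries. MITF changed by -0.57 on the log2 scale (SE 0.0791; adjusted p = 1.97e-12, same test), but it was higher after the correction (0.33). TFE3 was the most abundant of the family per length, at 21.2 in the control cells against 2.03 for MITF and 0.540 for TFEB, and its log2 fold change was 0.16, from 89.1 ± 2.41 to 99.3 ± 1.14 CPM (SD, n = 3 each).

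EPG5 (ENSG00000152223; hg38, chromosome 18, 45800581 to 45967327, minus strand), which tethers autophagosomes to late endosomes and lysosomes, had 60.6, 64.5 and 62.4 CPM in control libraries against 16.6, 15.5 and 15.8 CPM in siPRMT1 libraries. All siPRMT1 values lie below every control value, and the fall was 3.92-fold, a log2 fold change of -1.97 (SE 0.0507; edgeR quasi-likelihood adjusted p = 3.06e-156), or -0.97 after the correction. TECPR1, which binds ATG5 and acts on damaged membranes, had 16.7, 17.2 and 17.5 CPM in control libraries against 17, 19.2 and 18.3 CPM in siPRMT1 libraries. These ranges overlap, and the log2 fold change of 0.090 did not pass (SE 0.0657; adjusted p = 0.185, same test).

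Related genes with like functions shifted against each other, which can be read within a library and does not depend on scaling, but is not corrected for GC content and length of the transcripts. ATG2A had 1.77, 1.80 and 1.77 times the reads of ATG2B in control and 9.43, 8.55 and 10.5 times in siPRMT1 libraries, a 5.32-fold shift. ULK1 had 2.54, 3.37 and 3.08 times the reads of ULK2 in control and 12.1, 11.0 and 17.5 times in siPRMT1 libraries, a 4.45-fold shift. Both shifts favour the member whose transcript is shorter and richer in GC. After the GC and length correction the log2 fold changes were 0.026 for ATG2A and -0.93 for ATG2B, and -0.16 for ULK1 and -1.11 for ULK2.

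The ratio of ATG4B to ATG4C was 1.20, 1.23 and 1.31 in control and 4.08, 4.24 and 4.24 in siPRMT1 libraries. TFEB had 0.256, 0.2296 and 0.242 reads per read of MITF in control and 0.839, 0.902 and 0.720 in siPRMT1 libraries, so that MITF stayed ahead in every library by a smaller margin. After the GC and length correction these pairs differed little, with log2 fold changes of 0.16 for ATG4B and -0.033 for ATG4C, and of 0.26 for TFEB and 0.33 for MITF. MAP1LC3B had 0.574, 0.597 and 0.577 reads per read of GABARAP in control and 0.267, 0.265 and 0.269 in siPRMT1 libraries. GABARAP had 5.16, 4.72 and 4.73 times the reads of GABARAPL1 in control and 7.67, 7.90 and 8.05 times in siPRMT1 libraries. The corrected log2 fold changes were 0.35 for MAP1LC3B, 0.80 for GABARAP and 0.30 for GABARAPL1. The groups did not overlap for any of the 6 ratios compared, and each gave p = 0.1 by a two-sided exact permutation test of the log2 ratio (0.1 after Benjamini-Hochberg adjustment), the smallest value that 3 against 3 libraries allow. For single genes the groups did not overlap for 89.1% of all tested genes, so such separation is common here. The share over ratios of other gene pairs was not counted.

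**Figure D2:**
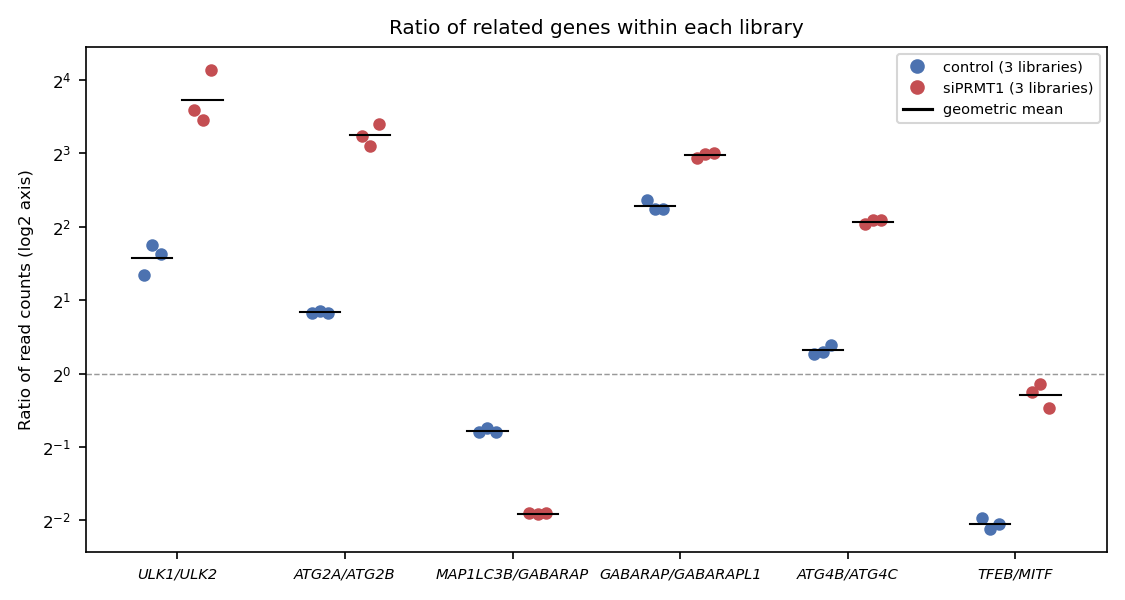
Ratio of the read counts of 6 pairs of related autophagy genes in each library, on a log2 axis; points are libraries and lines are geometric means of 3. The ATG2A/ATG2B and ULK1/ULK2 ratios rose 5.32-fold and 4.45-fold, and the MAP1LC3B/GABARAP ratio fell from between 0.574 and 0.597 to between 0.265 and 0.269.

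The changes went with GC content and length of the transcript, properties the choice of genes did not use. GC content and length were taken from the canonical transcript in GENCODE release 44. Of the 13 autophagy genes with the highest GC content, from 56.9% to 65.7%, 11 rose, none fell and 2 did not pass, with a median log2 fold change of 0.58. Of the 13 with the lowest, from 34.7% to 44.5%, 8 fell, 4 rose and 1 did not pass, with a median of -0.52. The 14 between had 6 that rose and 8 that fell, and a median of -0.24. Over all tested genes in the same 3 GC ranges the medians were 0.82, -0.79 and -0.046. Without regard to GC content, 44.3% of all tested genes rose and 45.0% fell.

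Across the 40 genes the log2 fold change correlated with GC content with Pearson's r = 0.60 and Spearman's rho = 0.62, beside 0.62 and 0.65 across 13694 tested genes. With log2 length the values were -0.71 and -0.63 across the 40 genes, beside -0.49 and -0.56 across all. These are correlations across genes of the same libraries and are given as a description. The 6 genes with a canonical transcript over 6000 bases include the 4 with the largest falls, ATG2B (13162 bases), EPG5 (12688), ULK2 (9149) and RB1CC1 (6636). The others, TECPR1 (6545) and ATG2A (6318), did not fall, and their GC contents are 61.8% and 63.9%, against 37.6% to 47.6% in the former. The limit of 6000 bases was chosen after the values were seen.

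**Figure D3:**
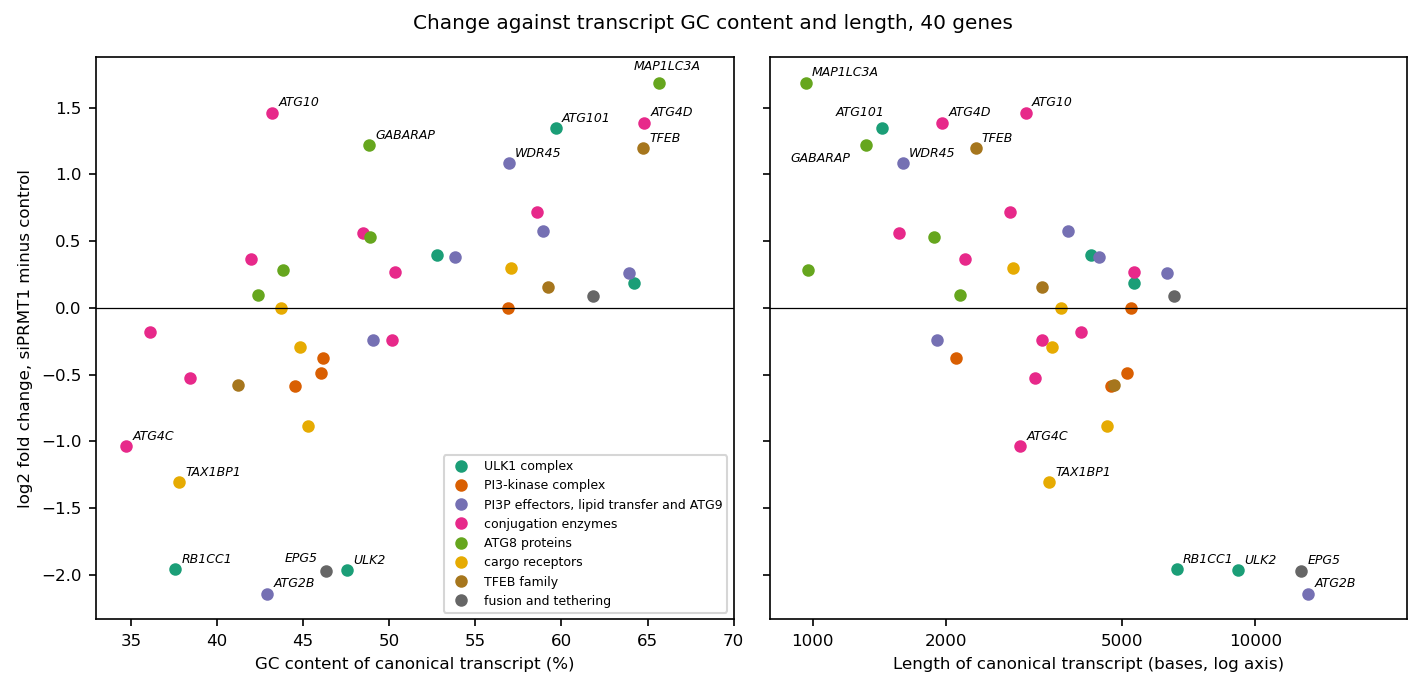
The log2 fold change of each of the 40 autophagy genes against GC content (left, %) and length (right, bases on a log axis) of its canonical transcript, coloured by role, with genes changed at least 2-fold named. The 4 genes with the largest falls, RB1CC1, ULK2, EPG5 and ATG2B, lie at the right end of the length axis. ATG10, whose value is uncertain because its exons overlap RPS23, stands above the other genes of like GC content.

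After the GC and length correction, in which smooth curves on both properties were removed from each library, 23 autophagy genes were higher (57.5%, against 44.9% of all tested genes) and 11 lower (27.5%, against 35.6%). An at least 2-fold change was left for 2 of them, ATG10 and ULK2, which is 5% against 14.2% of all tested genes. The value of ATG10 is uncertain, because its exons overlap those of RPS23, which was at 1.61 after the same correction. ULK2 has few reads, with 28, 34 and 20 counts in siPRMT1 libraries. There were 24 genes called in the same direction before and after, 16 higher and 8 lower. The 8 lower were ULK2, RB1CC1, BECN1, WIPI1, ATG2B, NBR1, TAX1BP1 and EPG5. There were 9 called genes that had the opposite direction and were called again after it: ATG14, UVRAG, ATG5, ATG12, OPTN and MITF turned from lower to higher, and ULK1, SQSTM1 and TFE3 from higher to lower. The origin of these trends was not tested.

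**Figure D4:**
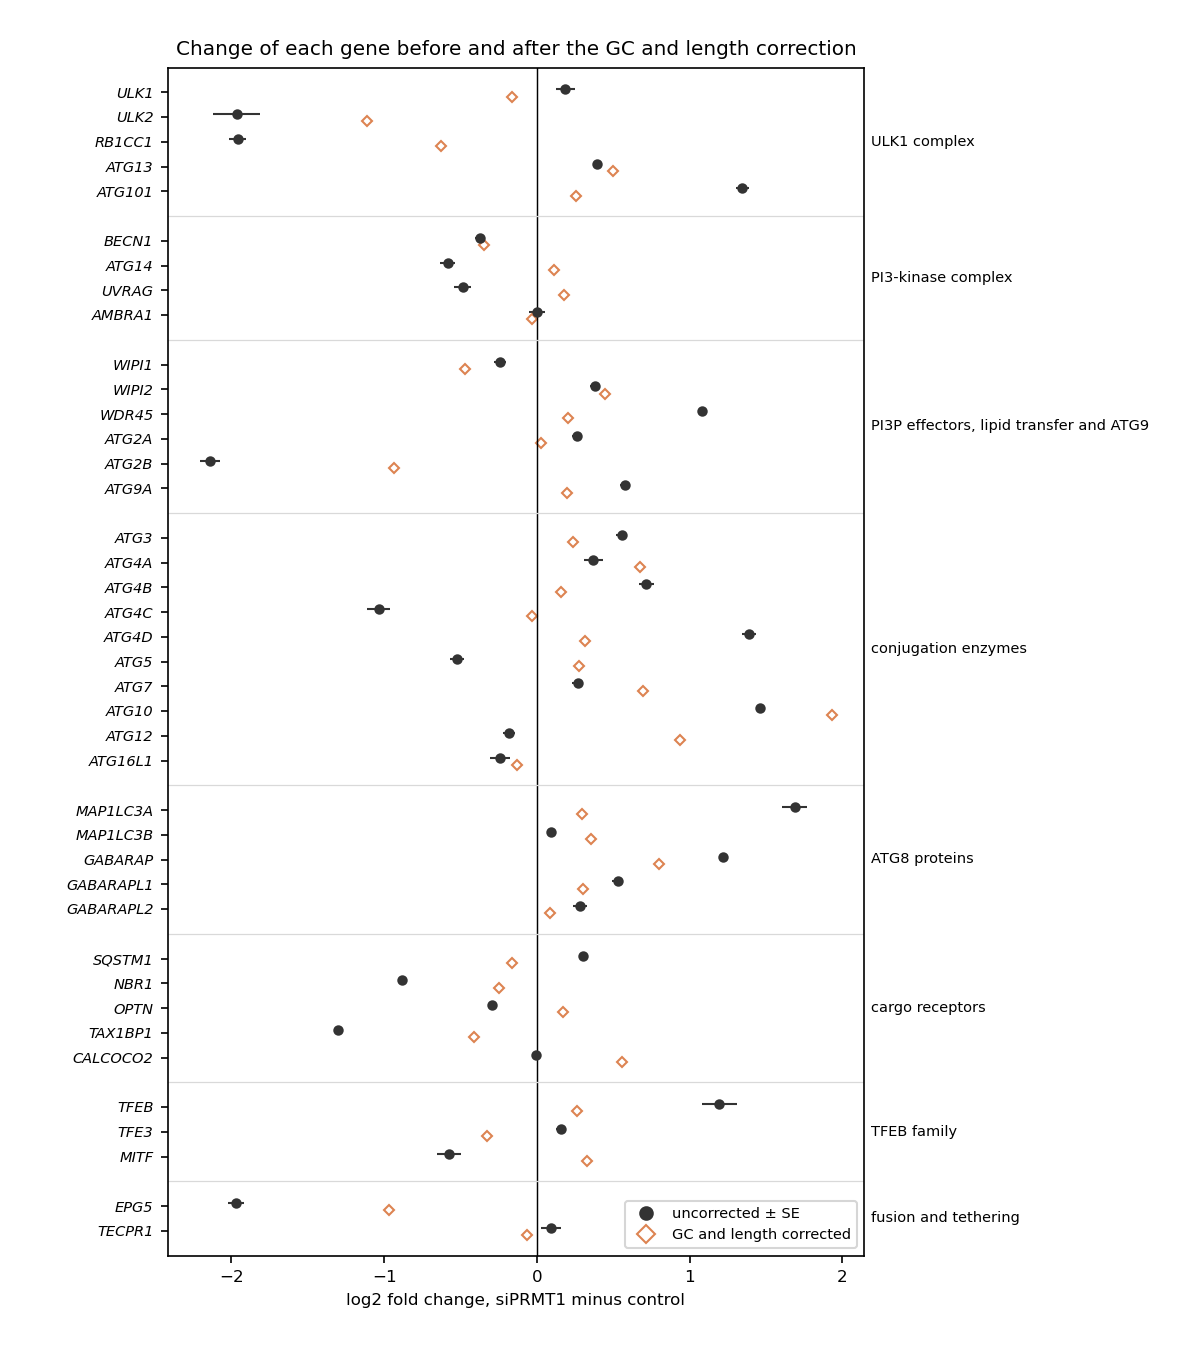
The log2 fold change of each autophagy gene (siPRMT1 minus control) before (filled circles, with standard errors) and after (open diamonds) the GC and length correction, grouped by role. After it 29 of the 40 values lie closer to 0, and ULK2, ATG2B, EPG5 and RB1CC1 stay the lowest of all 40.

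Genes that act with the autophagy machinery were counted from 5 further lists. Of 11 tested other core autophagy genes 4 rose and 6 fell, the median log2 fold change being -0.47, and after the correction 6 rose and 5 fell, with a median of 0.23. They ranged from TMEM41B (-1.85, and -0.92 after the correction), a lipid scramblase of the endoplasmic reticulum, to the kinase gene ULK3 (0.98, and 0.34). Of 13 genes of the fusion of autophagosomes with lysosomes 8 rose and 4 fell (median 0.20), but 5 rose and 7 fell when scaled only by library size. The highest was RILP (1.40, and 0.13 after the correction), a Rab7 effector, and the lowest VPS41 (-1.03, but 0.022 after the correction), a subunit of the HOPS tether.

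Of 19 tested receptors and adaptors of organelle autophagy 5 rose and 13 fell (median -0.39), and after the correction 9 rose and 6 fell. FKBP8, a mitochondrial receptor, rose by 1.35 (0.18 after the correction), and WDFY3 (ALFY), a large scaffold for aggregates, was lowest at -1.58 (-0.45). Of 23 genes of mTORC1 and AMPK, the kinases that restrain and activate ULK1, 11 rose and 10 fell (median 0.063), but 7 rose and 13 fell when scaled only by library size. The mTORC1 subunit gene MLST8 rose most (1.34, and 0.21 after the correction), and PRKAA1, a catalytic subunit of AMPK, fell most (-3.07, and -1.83 after it), from 93.6 ± 3.08 to 11.1 ± 0.900 CPM (SD, n = 3 each).

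Of 27 lysosomal and other target genes of TFEB 18 rose and 9 fell, with a median of 0.55. After the correction 14 rose and 11 fell with a median of 0.061. When scaled only by library size 14 rose and 13 fell. The proton pump subunit gene ATP6V0D1 was highest (1.29, and 0.40 after the correction), and FNIP1, a partner of folliculin, lowest (-2.31, and -1.06). The counts of the lists stand beside those of all tested genes in the same setting. Before the correction 44.3% of all tested genes rose and 45.0% fell, and after it 44.9% rose and 35.6% fell. Scaling only by library size gave 4588 that rose and 7593 that fell of 13710.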

How the data were processed

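Per the file headers, the authors deposited raw read counts, 1 whole number for each gene and library, beside identifiers, coordinates and gene model lengths. The submitters' processing notes name STAR 2.7.6a, fastp 0.23.2, edgeR 3.40.2, Subread 1.5.1, featureCounts and hg38. The roles of these, the annotation, strand setting and duplicate handling are unstated in the sources used here. Coordinates are the table's own.

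Genes with few counts were removed by filterByExpr, which left 13710. The groups were compared over the whole table in R 4.3.3 with edgeR 4.0.16 (TMM, glmQLFit, glmQLFTest, Benjamini-Hochberg over all tested genes, threshold 0.05), and standard errors come from the F statistic. Pairs of replicates differed by 1.05 to 1.38 times sampling noise (chi-square over degrees of freedom), so most of their spread was counting error. The very small p-values rest on this low spread between libraries. The GC and length correction fitted natural splines (5 degrees of freedom) to both properties in each library. Ratios of related genes, as given, drawn and tested, had 0.5 counts added to both genes. Other alternatives were RLE factors, library size alone, DESeq2 1.42.0, limma-voom (limma 3.58.1), no filter, a filter of at least 1 CPM in 3 libraries, a replicate block and leaving out each library; leaving out genes that overlap others was added after seeing the data. The script was tested on simulated data. The autophagy genes, lists and tests were chosen with earlier results of these data known. Values per library are given for the highest and lowest gene of each role, GABARAP and SQSTM1; from each further list the highest and lowest called gene is named.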

Additional observations from a re-analysis of the deposited data

How the results depend on the processing

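The numbers of autophagy genes that rose (20 to 21), fell (16) or changed at least 2-fold (13), and of all genes called (12069 to 12159), held when each library was left out, with PRMT1 between -3.63 and -3.60 and the median of the autophagy genes between 0.12 and 0.15 on the log2 scale. That median was -0.19 when scaled only by library size, 0.11 without a filter, 0.18 after the GC and length correction and 0.00065 over the 29 genes left without ATG10 and the 10 whose exons overlap another gene by at least 10%. Among those 29 genes 13 rose, 13 fell and 8 changed at least 2-fold. The genes left out include ATG10, ATG101, ATG4D, GABARAP and WDR45, which rose at least 2-fold. MAP1LC3A and TFEB, the others with such a rise, stayed, as did all 6 that fell at least 2-fold. Before any gene was left out, 44.3% of all tested genes rose and 45.0% fell, 15.3% and 21.0% at least 2-fold. With library size alone 12 autophagy genes rose, and after the correction 2 changed at least 2-fold. The cause was not tested, beyond the fewer genes counted among the 29.

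With library size alone the sign turned for ULK1 (-0.13), AMBRA1 (-0.32), ATG2A (-0.054), ATG7 (-0.049), MAP1LC3B (-0.22), GABARAPL2 (-0.034), SQSTM1 (-0.016), TFE3 (-0.16) and TECPR1 (-0.23). Of these, ATG2A, ATG7, GABARAPL2 and SQSTM1 no longer passed, and neither did WIPI2 (0.062) and ATG4A (0.052). AMBRA1, TECPR1 and CALCOCO2 (-0.32), which had not passed before, passed as lower. After the correction the sign turned for ULK1 (-0.16), ATG14 (0.11), UVRAG (0.18), AMBRA1 (-0.034), ATG5 (0.27), ATG12 (0.94), SQSTM1 (-0.16), OPTN (0.17), CALCOCO2 (0.56), TFE3 (-0.33), MITF (0.33) and TECPR1 (-0.064). Near 0, CALCOCO2 was 0.0051 with RLE factors, 0.0054 with DESeq2 and 0.0079 without siPRMT1 replicate 2. AMBRA1 was -0.000198 with limma-voom, -0.012 without a filter, -0.0015 with at least 1 CPM in 3 libraries, and -0.022, -0.029 and -0.012 without control replicate 1, siPRMT1 replicate 1 and siPRMT1 replicate 3. With single replicates left out AMBRA1 ranged from -0.029 to 0.049 and CALCOCO2 from -0.0081 to 0.0079. No other autophagy gene turned sign in the alternatives run. Without single replicates the log2 ratio shifts ranged from 1.98 to 2.38 (ULK1/ULK2), 2.33 to 2.50 (ATG2A/ATG2B), -1.14 to -1.10 (MAP1LC3B/GABARAP), 0.66 to 0.75 (GABARAP/GABARAPL1), 1.73 to 1.78 (ATG4B/ATG4C) and 1.64 to 1.84 (TFEB/MITF).

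Same-numbered libraries of the groups share only a number: their deviations correlated at -0.010, 0.037 and 0.0015, and not every library correlated best with its own number. With the replicate number as a block 12219 genes were called, 21 autophagy genes rose and 16 fell, and the block changed no call among them.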
